A study of Mus musculus with 9 samples.

Results

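Zona proteins and oocyte-secreted factors are described here as 6 genes, namely Zp1, Zp2, Zp3, Gdf9, Bmp15 and Oosp1, 6 of the 17889 genes named on a mouse Ref-8 beadchip of 25697 probes, with 1 probe each. The members are the probes that carry these symbols in the authors' report on BaP. The symbols were not picked by a threshold on values, but probes were joined to that report through their measured group differences. Ovaries of Swiss mouse pups, aged 3 to 4 days, were kept on culture inserts for 96 hours in medium with fetal calf serum, basic fibroblast growth factor, leukemia inhibitory factor and stem cell factor. Of the 9 arrays, 3 hold control ovaries in 0.01% acetone, 3 hold ovaries in DMBA (7,12-dimethylbenz-[a]anthracene) at 50 nM and 3 hold ovaries in BaP (benzo[a]pyrene) at 1 uM. All groups share strain, age, medium and culture time, and the DMBA dose was picked in pilot work to be overtly toxic. The labels do not state whether the 3 arrays of each group were made from different animals or culture wells. The p-values therefore reflect variation among arrays, part of which may be technical.

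The zona pellucida is the glycoprotein coat that an oocyte lays down as it grows. In the mouse it is built of filaments of ZP2 and ZP3 that ZP1 cross-links, and FIGLA, a basic helix-loop-helix factor of oocytes, switches the zona genes on through E-boxes in their promoters. GDF9 and BMP15 are related TGF-beta family ligands that the oocyte secretes to the surrounding granulosa cells, and mouse follicles without GDF9 do not develop past the primary stage. OOSP1 is a secreted oocyte protein. In ovaries of this age most oocytes lie in primordial follicles, and a first set of follicles grows during the culture.

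Oosp1 and Bmp15 were called lower with both compounds, Gdf9 with BaP, and no zona gene passed the test against acetone. Of 15 alternatives, the DMBA call was lost under 5 for Oosp1 and 8 for Bmp15, and the BaP call under 5 for Gdf9. With BaP, Zp1 was called lower under 1 alternative (median scaling, -0.48) and Zp3 higher under 2. Against acetone, 2 of 6 members fell and 0 rose with DMBA, beside 0.249% of all probes called lower and 0.802% called higher (limma, adjusted p under 0.05). At an unadjusted p under 0.05 the members numbered 2 with DMBA, where 10.6% of all probes passed, and 4 with BaP, where 20.8% passed. With BaP 3 of 6 fell and 0 rose, beside 4.9% of all probes called lower and 4.9% called higher. The median log2 difference of the 6 genes was -0.06 with DMBA and -0.17 with BaP, beside -0.0057 and -0.0014 over all probes. In bulk RNA, fewer oocytes and less of a transcript per oocyte cannot be told apart.

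Promoter sequence is shown for the members whose entry was found in RefSeq's promoter table (GRCm38.p6), 3 of 6, to set the promoters of both genes called with both compounds beside that of a zona gene; Zp1, Zp2 and Gdf9 are named only. Each run is the 250 bases before the annotated start, on the gene's strand, with E-boxes (CANNTG, which reads alike on both strands) in capitals.
Oosp1, chr19:11691052-11691301, minus strand: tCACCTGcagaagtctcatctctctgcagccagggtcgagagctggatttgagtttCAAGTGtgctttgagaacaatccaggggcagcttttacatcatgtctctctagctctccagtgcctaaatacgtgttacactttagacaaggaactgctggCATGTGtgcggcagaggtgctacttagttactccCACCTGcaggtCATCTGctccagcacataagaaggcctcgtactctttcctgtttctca
Bmp15, chrX:6320725-6320974, minus strand: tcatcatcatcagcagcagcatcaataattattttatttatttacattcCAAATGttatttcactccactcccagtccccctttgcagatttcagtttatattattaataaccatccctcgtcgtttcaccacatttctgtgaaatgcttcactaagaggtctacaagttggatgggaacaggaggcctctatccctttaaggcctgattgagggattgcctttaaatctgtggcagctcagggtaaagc
Zp3, chr5:135979855-135980104, plus strand: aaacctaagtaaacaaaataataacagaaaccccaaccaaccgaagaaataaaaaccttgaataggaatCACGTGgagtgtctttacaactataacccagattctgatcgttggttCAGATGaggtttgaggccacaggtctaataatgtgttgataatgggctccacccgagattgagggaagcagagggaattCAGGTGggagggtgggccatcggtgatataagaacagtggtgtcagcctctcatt

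The Oosp1 window holds 5 E-boxes, that of Zp3 holds 3 and that of Bmp15 holds 1. Among 32851 promoter windows of the same length, 66.2% hold at least 1 E-box and 12.2% hold 3 or more. The homeobox factor NOBOX is known to bind TAATTG and TAATTA, which were searched on both strands. Bmp15 holds 1 TAATTA starting 225 bases before the start, a motif found in 4.84% of windows, and Oosp1 and Zp3 hold neither form. TAATTG is found in 7.17% of windows and in none of these 3. A match is a run of letters and not a shown binding site.

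Arrays differed in brightness, with a median raw signal of 105.8 to 133.7 on acetone, 105.2 to 126 on DMBA and 94.7 to 104.1 on BaP arrays. DMBA replicate 3 stood apart, with an SD of 0.151 log2 units around its group mean, against 0.079 to 0.121 on the other arrays. Quantile normalization removes differences in brightness, and values under median scaling are given for the members and, beside the gene lists, where they are named as such. In all, 206 probes were called higher and 64 lower with DMBA, or 2 and 2 under median scaling. With BaP 1258 were higher and 1260 lower, or 429 and 6075 under median scaling.

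As a check of the tissue label, the signal of the oocyte genes was set against all probes of the array: on average, Gdf9 lay at percentile 99.2 of all probe levels, Zp3 at 99, Zp1 at 93.6, Bmp15 at 85 and Oosp1 at 77.9. Zp2 was dim, at percentile 59, with raw signals of 106.5 to 181.1 that were at most 1.36 times the median of their array. Probe brightness is no measure of one transcript against another, so levels are compared only between groups within a gene.

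Oosp1 had the largest estimated fall of the 6 members with either compound, with intervals that overlapped those of Bmp15. With BaP the order turned without acetone replicate 3 (Bmp15 -0.96, Oosp1 -0.89) and without BaP replicate 2 (-0.94 and -0.92). Its log2 signal was 8.69, 8.89 and 9.03 on the acetone arrays, 8.34, 8.03 and 7.90 on the DMBA arrays and 7.96, 7.80 and 7.93 on the BaP arrays. Every exposed array lay below every control array. With DMBA it was 1.72-fold lower, a log2 difference of -0.78 (SE 0.12, limma adjusted p = 0.0135). With BaP it was 1.96-fold lower, at -0.97 (SE 0.09, limma adjusted p = 6.14e-08). Group means ± SD (n = 3) were 8.87 ± 0.17 with acetone, 8.09 ± 0.23 with DMBA and 7.90 ± 0.09 with BaP, so the order was acetone, DMBA, BaP, with the last pair not different beyond their spread. On the raw scale, 458.6 to 785.8 in acetone stood against 240.8 to 458.2 with DMBA and 199.1 to 211.6 with BaP.

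The authors' deposited table lists Oosp1 as differentially expressed for both compounds, with ratios of acetone over compound of 1.64 for DMBA and 1.84 for BaP. The DMBA call was lost without acetone replicate 2 (-0.77, limma adjusted p = 0.138), acetone replicate 3 (-0.70, 0.111) or DMBA replicate 2 (-0.75, 0.0951), and under median scaling (-0.86, 0.241), with limma on the authors' deposited log2 values giving -0.71 (0.0602). Without DMBA replicate 3 it was -0.69 (limma adjusted p = 0.000107).

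Bmp15, on the X chromosome, encodes the ligand that signals with GDF9 through the receptor BMPR2. Its log2 signal was 9.65, 9.71 and 9.39 on the acetone arrays, 9.20, 8.92 and 8.96 on the DMBA arrays and 8.67, 8.87 and 8.61 on the BaP arrays. After quantile normalization the 3 groups did not overlap, with acetone highest and BaP lowest. Raw signals were 673.4 to 1375.0 with acetone, 455.0 to 810.8 with DMBA and 297.4 to 394.3 with BaP, so raw acetone and DMBA values overlapped. Means ± SD were 9.58 ± 0.17, 9.03 ± 0.15 and 8.72 ± 0.14 (n = 3 each). With DMBA the gene was 1.47-fold lower, at -0.55 (SE 0.11, limma adjusted p = 0.0363), and with BaP 1.82-fold lower, at -0.86 (SE 0.10, limma adjusted p = 6.25e-07).

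In the authors' deposited table Bmp15 is listed as differentially expressed for BaP and not for DMBA, where its ratio of acetone over compound was 1.45 and its unadjusted p-value 7.55e-04. The DMBA call of Bmp15 was lost in 8 of 15 alternatives, among them those without acetone replicate 1 (-0.52, limma adjusted p = 0.173), 2 (-0.49, 0.249) or 3 (-0.65, 0.057) and without DMBA replicate 2 (-0.50, 0.179), while its difference stayed between -0.65 and -0.49. Without DMBA replicate 3 it was -0.52 (limma adjusted p = 0.00201).

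Gdf9, the oocyte ligand needed for mouse follicles to pass the primary stage, fell with BaP and did not pass the test with DMBA; the difference between the compounds was not called either. Its log2 signal was 12.86, 12.61 and 12.52 on the acetone arrays, 12.61, 12.49 and 12.36 on the DMBA arrays and 12.36, 12.28 and 12.34 on the BaP arrays. BaP arrays lay below all acetone arrays, and DMBA arrays overlapped both groups, BaP only through DMBA replicate 3. Means ± SD were 12.66 ± 0.17, 12.48 ± 0.13 and 12.32 ± 0.04 (n = 3 each). With BaP it was 1.26-fold lower, at -0.34 (SE 0.09, limma adjusted p = 0.0165), and with DMBA it stood at -0.18 (95% interval -0.41 to 0.05, limma adjusted p = 0.626). The BaP call was lost without acetone replicate 1 (-0.24, limma adjusted p = 0.146), acetone replicate 2 (-0.36, 0.0506) or BaP replicate 2 (-0.31, 0.0708), with all 9 arrays in 1 fit (-0.34, 0.0524) and with a normexp offset of 16 (-0.34, 0.178).

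**Figure D1:**
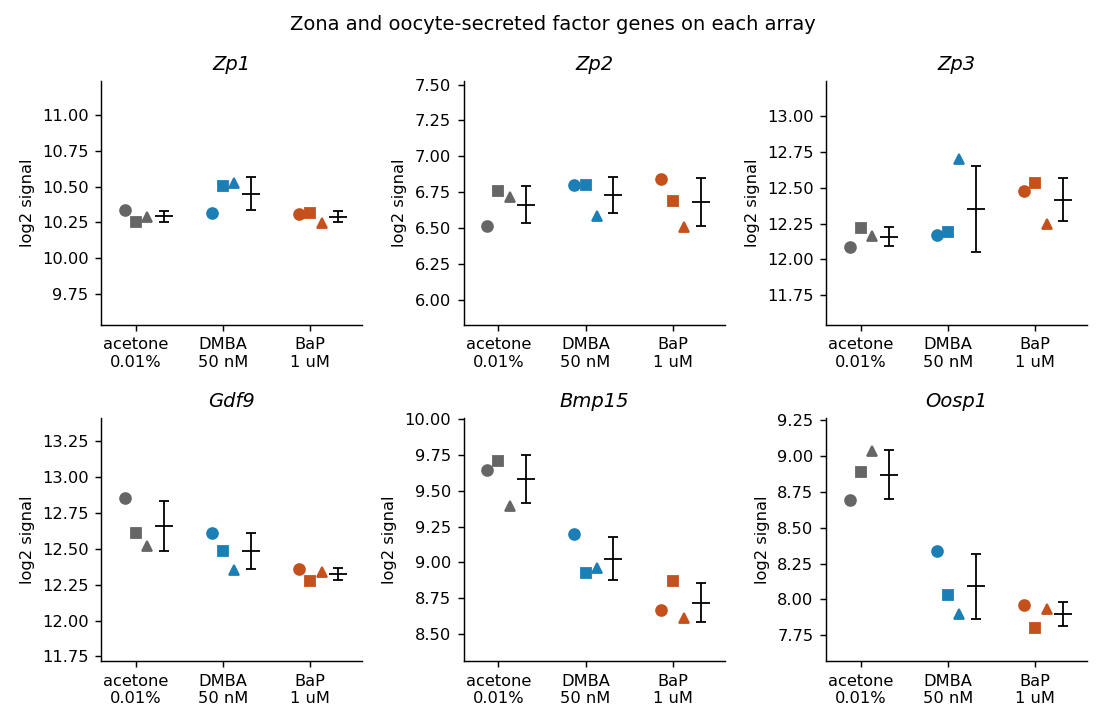
Log2 signal (vertical axis, same span in each panel) of the 6 genes on each of the 9 arrays by group, with circles, squares and triangles for replicates 1, 2 and 3 and a bar for the mean ± SD of 3 arrays. Oosp1 and Bmp15 lie lower on every exposed array than on any acetone array, and the zona genes do not.

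Zp3 encodes the zona protein with a role in sperm binding in the mouse, and its probe is among the brightest of the array. Its log2 signal was 12.09, 12.22 and 12.17 on the acetone arrays, 12.17, 12.19 and 12.70 on the DMBA arrays and 12.47, 12.53 and 12.25 on the BaP arrays. DMBA replicates 1 and 2 lay within the acetone range, DMBA replicate 3 was the highest of the 9 arrays, and the BaP arrays lay above all acetone arrays. Means ± SD were 12.16 ± 0.07, 12.35 ± 0.30 and 12.42 ± 0.15 (n = 3 each). The difference was 0.19 with DMBA (95% interval -0.09 to 0.48, limma adjusted p = 0.688) and 0.02 without DMBA replicate 3. With BaP it was 0.26 (0.07 to 0.44, limma adjusted p = 0.0692), short of the threshold, and passed it without BaP replicate 3 (0.34, limma adjusted p = 0.0158) or without background correction (0.26, 0.0475). Under median scaling the sign turned, to -0.11 (limma adjusted p = 0.567).

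Zp1 encodes the zona protein that cross-links the filaments. Its log2 signal was 10.33, 10.25 and 10.29 on the acetone arrays, 10.32, 10.51 and 10.53 on the DMBA arrays and 10.31, 10.32 and 10.24 on the BaP arrays. Means ± SD were 10.29 ± 0.04, 10.45 ± 0.12 and 10.29 ± 0.04 (n = 3 each). Acetone and BaP arrays covered about the same range, and 2 of 3 DMBA arrays lay above it. With DMBA the difference was 0.16 (95% interval -0.02 to 0.34, limma adjusted p = 0.569), and the authors' deposited table gives it an unadjusted p-value of 0.0244. With BaP it was -0.0010 (-0.17 to 0.17, limma adjusted p = 0.997), but under median scaling it was called lower at -0.48 (limma adjusted p = 0.0108).

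Zp2 encodes the other filament protein. Log2 signals were 6.52, 6.76 and 6.71 on acetone, 6.80, 6.80 and 6.58 on DMBA and 6.84, 6.69 and 6.51 on BaP arrays, which overlapped throughout. Means ± SD were 6.66 ± 0.13, 6.73 ± 0.12 and 6.68 ± 0.17 (n = 3 each). Differences were 0.064 with DMBA (95% interval -0.14 to 0.27, limma adjusted p = 0.896) and 0.017 with BaP (-0.18 to 0.21, limma adjusted p = 0.954), and -0.11 with BaP under median scaling. These intervals are for the probe's signal, which lies near the array median.

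Counted by arrays alone, 2 members lay below all acetone arrays with DMBA, as 8.02% of all probes did, and 0 lay above, where 7.93% did. With BaP 3 lay below, as 12.4% of all probes did, and Zp3 lay above, as 11.7% did. Oosp1 with DMBA ranked at percentile 0.0195 of all probes' differences and Bmp15 at 0.128, and with BaP they ranked at 0.0973 and 0.128.

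**Figure D2:**
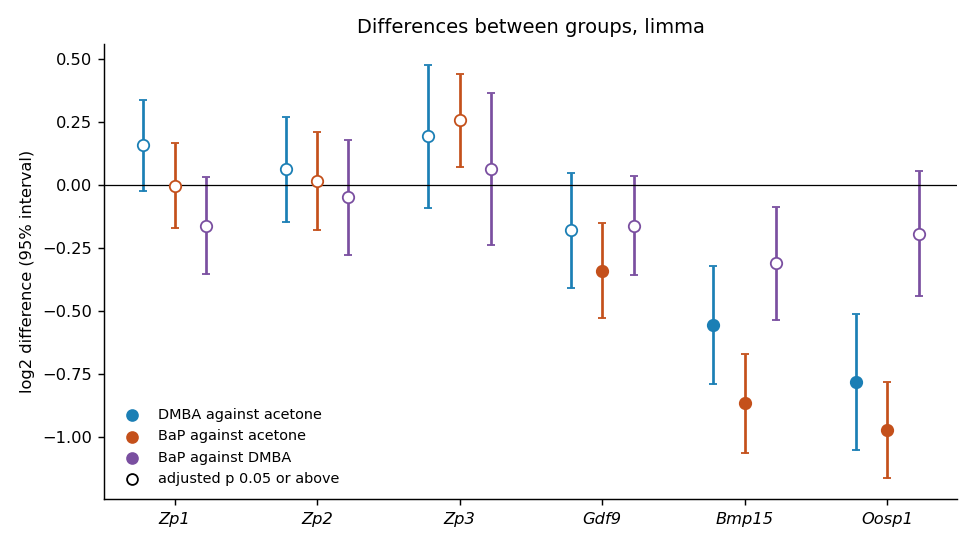
Log2 difference of each gene (vertical axis) in the 3 comparisons, with bars for the 95% interval from limma; filled points have an adjusted p under 0.05. The 5 filled points are Oosp1 and Bmp15 with both compounds and Gdf9 with BaP, all below 0.

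DMBA and BaP are both polycyclic aromatic hydrocarbons that cells convert to DNA-binding metabolites, DMBA a dimethylated benzanthracene and BaP an unsubstituted benzopyrene. Their doses differ, 50 nM against 1 uM, so the direct comparison sets these cultures side by side and not the compounds at a matched dose. None of the 6 genes was called between them (limma, 0 of 6, beside 1.12% of all probes called, 0.506% higher and 0.615% lower with BaP). At an unadjusted p under 0.05, 1 member passed, beside 10.6% of all probes. Bmp15 was lower with BaP than with DMBA by a log2 difference of -0.31 (95% interval -0.54 to -0.08, limma adjusted p = 0.258). Differences were -0.19 (-0.44 to 0.06) for Oosp1, -0.16 (-0.36 to 0.04) for Gdf9, -0.16 (-0.35 to 0.03) for Zp1, 0.064 (-0.24 to 0.37) for Zp3 and -0.047 (-0.28 to 0.18) for Zp2. BaP arrays lay below all DMBA arrays for Bmp15 and Zp1, as for 7.69% of all probes, and above them for 0 members, as for 8.14%. Under median scaling Bmp15 (-0.71, limma adjusted p = 0.0245) and Zp1 (-0.52, limma adjusted p = 0.0151) passed the threshold.

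A ratio of 2 genes on the same array does not move with a uniform scale of that array. It can move with shifts that depend on signal level. The secreted factors were also set against Zp3 and Zp1 within each array. This measure was chosen after their values were seen, so it restates known differences and is no separate support. Zp3 itself stood at 0.26 with BaP, which adds to the fall of ratios to it. The log2 ratio of Oosp1 to Zp3 was -3.40, -3.33 and -3.13 on acetone, -3.83, -4.16 and -4.80 on DMBA and -4.51, -4.73 and -4.31 on BaP arrays. It was lower than any acetone value on all 6 exposed arrays, DMBA replicates 1 and 2 included. The mean differed from acetone by -0.98 with DMBA and -1.23 with BaP, and across 5 ways of processing it ranged from -1.06 to -0.91 and from -1.34 to -1.14. Each of these gave an exact two-sided permutation p = 0.1, the smallest that 3 arrays against 3 allow. Adjustment over the 27 tests of this kind was done only for the values as reported, and gave a permutation p of 0.18.

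For Bmp15 to Zp3 the shift was -0.75 with DMBA and -1.12 with BaP, again with no overlap with acetone (exact permutation p = 0.1 each, 0.18 adjusted). For Gdf9 to Zp3 it was -0.60 with BaP with no overlap (exact permutation p = 0.1) and -0.37 with DMBA with overlap (exact permutation p = 0.3). Measured against Zp1, the shifts of Oosp1 were -0.94 with DMBA and -0.97 with BaP, and those of Bmp15 were -0.71 and -0.86. The ratio of Zp1 to Zp3 differed from acetone by -0.04 with DMBA and by -0.26 with BaP. Against Gdf9 on the same array, the ratio of Oosp1 differed from acetone by -0.60 and -0.63 and that of Bmp15 by -0.38 and -0.53, with no overlap between exposed and acetone arrays.

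**Figure D3:**
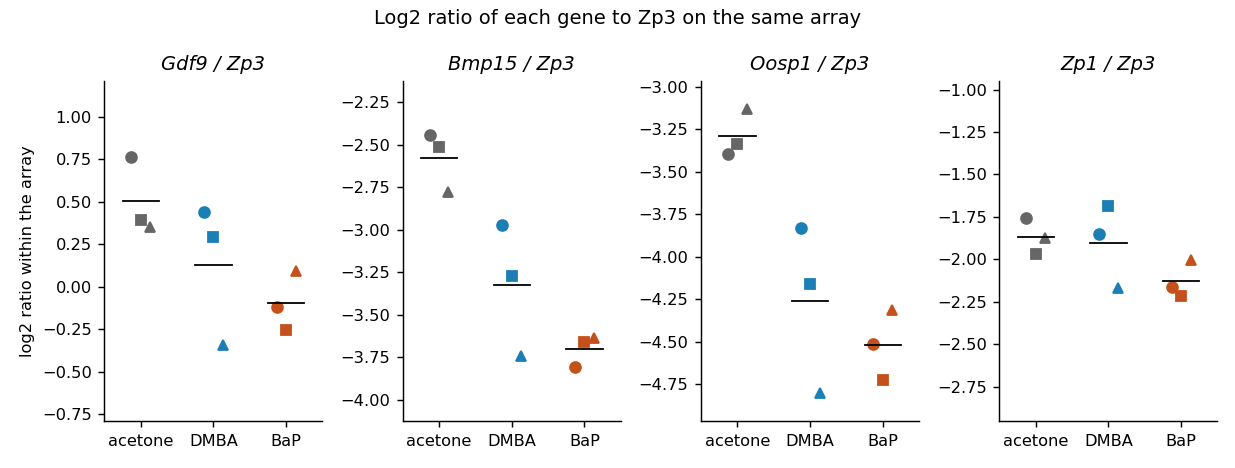
Log2 ratio of Gdf9, Bmp15, Oosp1 and Zp1 to Zp3 on the same array (vertical axis, same span in each panel) by group, with lines for the means and circles, squares and triangles for replicates 1, 2 and 3. Oosp1 and Bmp15 ratios are lower on all exposed arrays than on any acetone array; the height of a ratio has no meaning of its own.

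Under median scaling the probes above the median level shifted by a median of -0.34 with BaP, against -0.0106 after quantile normalization, while all probes shifted by -0.0046. With DMBA the shift of those probes was -0.07. Under median scaling with BaP, Oosp1 stood at -1.40, Bmp15 at -1.36, Gdf9 at -0.70, Zp1 at -0.48, Zp3 at -0.11 and Zp2 at -0.11. Oosp1, Bmp15, Gdf9 and Zp1 had values below -0.34, and Zp3 and Zp2 had values above it. The shift depends on signal level, and -0.34 is a median over all probes above the median level. It is therefore no reference for a single gene, least of all for Zp2, whose signal is near the array median. Zp1, at -0.48 here, stood at -0.0010 after quantile normalization.

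**Figure D4:**
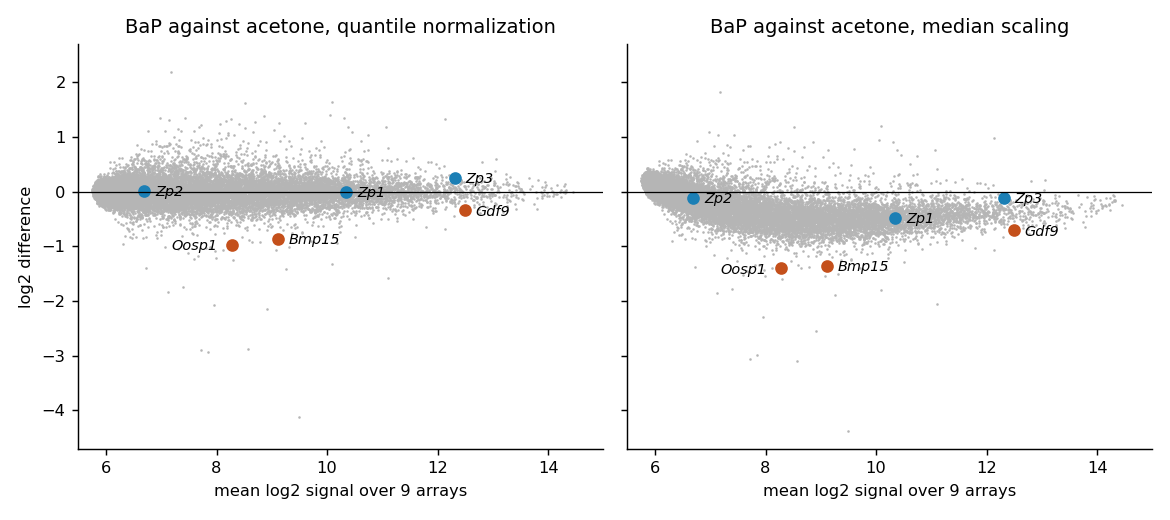
Log2 difference of BaP against acetone (vertical axis) by mean log2 signal over 9 arrays for all 25697 probes (grey), after quantile normalization (left) and median scaling (right), with zona genes in blue and secreted factors in red-brown. Oosp1 and Bmp15 lie below most probes in both panels, and Zp1 lies among the bulk of them in both. Some probes lie lower than Oosp1 and Bmp15, such as that of Coro1a (-1.21 on the left, -1.55 on the right).

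**Figure D5:**
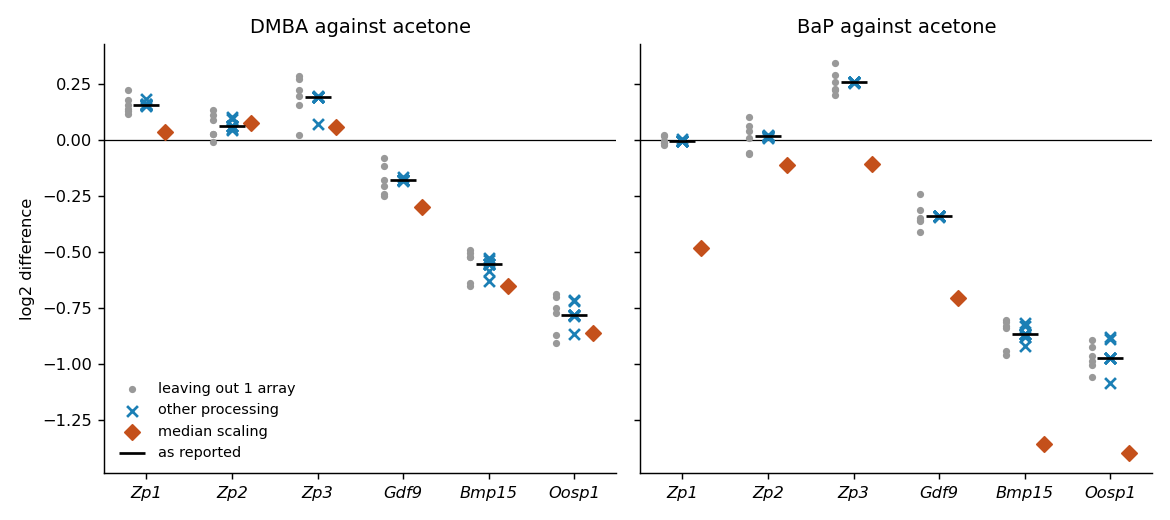
Log2 difference of each gene against acetone (vertical axis) as reported (bar), leaving out 1 array (grey points), under other processing (crosses) and under median scaling (diamonds), for DMBA (left) and BaP (right). Oosp1, Bmp15 and Gdf9 stay below 0 under all 15 alternatives, and with BaP the zona genes cross 0 under some of them.

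The gene whose pattern over the 9 arrays was most like that of Bmp15 was Mycl, a MYC family gene, with a Pearson r of 0.988 among 12513 probes searched. Mycl fell by 0.51 with DMBA and by 0.87 with BaP, and Grb7, an adaptor protein gene ranked below Aig1 with r = 0.974, fell by 0.52 and by 0.65. Aig1 (r = 0.976) stood at -0.15 with DMBA (limma adjusted p = 0.512) and at -0.23 with BaP (limma adjusted p = 0.0825). Gdf9 was followed most closely by Phka2 (r = 0.966), Zp3 by Limk2 (r = 0.982), Zp1 by Numb (r = 0.961) and Zp2 by Tomm22 (r = 0.966). These values describe 9 arrays that share 3 groups, and the best of many probes is high for any gene.

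Among other zona partners and secreted relatives (9 genes measured, the 3 zona genes and Oosp1 included), Oosp1 was the 1 called against acetone. It was called with both compounds, beside 1.05% of all probes called with DMBA and 9.8% with BaP. Oosp2 is a paralog of Oosp1, and its log2 signal was 8.60 to 8.76 on acetone, 8.27 to 8.40 on DMBA and 8.85 to 8.92 on BaP arrays. The groups did not overlap. Of all probes, 8.02% lay below all acetone arrays with DMBA and 11.7% above them with BaP, and 8.14% lay higher on all BaP than on all DMBA arrays. Oosp2 was higher with BaP than with DMBA by 0.56 (limma adjusted p = 0.00657), or 0.155 under median scaling. Against acetone it stood at -0.34 with DMBA (limma adjusted p = 0.0838) and at 0.23 with BaP (0.0942), the latter -0.26 under median scaling.

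Of 11 measured transcription regulators of oocyte genes, 0 were called with DMBA (limma, 1.05% of all probes called) and 1, the GATA factor Gata4, fell with BaP (-0.31, or -0.59 under median scaling, limma adjusted p = 0.0365; 9.8% of all probes called). Gata4 is also counted among the granulosa markers below. Figla, the activator of the zona genes, stood at -0.08 with DMBA (95% interval -0.32 to 0.16) and -0.02 with BaP (-0.21 to 0.17). Nobox stood at 0.0068 and -0.13, and Sohlh1, a helix-loop-helix factor of early oocytes, at 0.09 and 0.20. The homeobox gene Lhx8 was lower with BaP than with DMBA by -0.48 (limma adjusted p = 0.0328), at 0.26 and -0.22 against acetone. Under median scaling Figla was at -0.50 and Lhx8 at -0.69 with BaP, so their sizes depend on the scale.

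Of 18 measured genes for receptors and SMAD signalling of GDF9 and BMP15, 0 were called with DMBA, and 3 rose and 2 fell with BaP. Of all probes, 1.05% were called with DMBA, and 4.9% were called higher and 4.9% lower with BaP. Bmpr1b, a type I receptor of BMP15, fell (-0.30, limma adjusted p = 0.034), as did Smad5 (-0.35), a mediator of BMP signals. Tgfbr1, the type I receptor of GDF9, rose (0.27, limma adjusted p = 0.0368), as did Smad2 (0.31), a mediator of GDF9 signals, and the inhibitory Smad6 (0.31). Median scaling turned Tgfbr1 to -0.12 and Smad2 to -0.17, and kept the signs of the other 3. Bmpr2, the shared type II receptor, stood at 0.08 and -0.11 on a dim probe at percentile 44.8. Of 15 measured SMAD target and granulosa response genes, 0 were called with DMBA and 1, the inhibin subunit Inha, fell with BaP (-0.31, limma adjusted p = 0.0146, or -0.71 under median scaling). Inha is also counted among the granulosa markers below.

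Other products of growing oocytes are counted beside 1.05% of all probes called with DMBA and 9.8% with BaP. Their calls went both ways with BaP, while their mean level was lower on every exposed array than on any acetone array. The same held for the mean level of the granulosa markers below. For these oocyte products the mean level was 9.850 to 9.854 on acetone, 9.76 to 9.83 on DMBA and 9.74 to 9.75 on BaP arrays. Of 21 measured, 1 rose with DMBA, Btg4 (0.49, limma adjusted p = 0.0453), a gene of maternal mRNA decay. With BaP 1 rose and 5 fell, among them Rfpl4 (-0.55, or -0.99 under median scaling), Bcl2l10 (-0.44, or -0.91 under median scaling) and the formin gene Fmn2 (-0.34), while Nlrp5, a maternal-effect gene, rose (0.37, or 0.039 under median scaling). Their median difference was -0.0016 with DMBA and -0.11 with BaP, beside -0.0135 and -0.0049 over all genes, and under median scaling it was -0.14 and -0.43. Without DMBA replicate 3, 1 rose and 3 fell with DMBA.

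Genes listed as germ cell genes of primordial and later oocytes had calls in both directions. The stages at which each is expressed were not tested. Of 17 measured, 0 were called with DMBA, beside 1.05% of all probes. With BaP 2 rose and 4 fell, beside 4.9% of all probes called higher and 4.9% called lower. The RNA-binding protein gene Dazl fell (-0.47, or -0.95 under median scaling, limma adjusted p = 4.19e-04) and the helicase gene Ddx4 rose (0.47, limma adjusted p = 3.24e-04), the latter on a dim probe at percentile 49.8. The cohesin gene Smc1b (-0.70, or -1.18 under median scaling) and the adhesion gene Cdh1 (-0.42) fell too. The mean level of the list was 7.24 to 7.30 on acetone, 7.17 to 7.28 on DMBA and 7.14 to 7.16 on BaP arrays.

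Markers of other ovarian cells are counted beside 1.05% of all probes called with DMBA and 9.8% with BaP. Of 15 granulosa markers, 1 fell with DMBA (Greb1, -0.43), or 1 rose and 3 fell without DMBA replicate 3, and 1 rose and 6 fell with BaP, led by the oestradiol enzyme gene Hsd17b1 (-0.66, or -1.16 under median scaling), with mean list levels of 8.40 to 8.43 on acetone, 8.28 to 8.36 on DMBA and 8.23 to 8.30 on BaP arrays. The granulosa regulator Foxl2 rose with BaP (0.44), while Amh stood at -0.10 and -0.08 and Kitl, the KIT ligand gene, at -0.04 and -0.10. Of 12 leukocyte markers, 2 rose with DMBA, the complement genes C1qb (0.88) and C1qc (0.65), and 8 fell with BaP, led by Coro1a (-1.21) and Cd52 (-1.08), with mean levels of 7.61 to 7.72, 7.82 to 7.92 and 7.12 to 7.25. Of 13 stroma and theca markers 0 were called with DMBA and 2 rose with BaP, the collagen gene Col3a1 (0.82, or 0.35 under median scaling) and Lum (0.33, or -0.05 under median scaling). Of 8 surface epithelium markers 1 rose with DMBA, and 1 rose and 2 fell with BaP, led by the keratin gene Krt19 (-0.63, or -1.12 under median scaling), and of 8 endothelial markers 0 were called with DMBA and 1 rose with BaP. The endothelial share, 1 of 8, lies near the 9.8% of all probes called with BaP. The surface epithelium share, 1 up and 2 down of 8, lies above it. The part of these shifts in the values of the 6 oocyte genes was not tested.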

How the data were processed

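Biotin-labelled RNA of 9 ovary samples was hybridized to Illumina mouse Ref-8 beadchips, per the labels. Per the file headers, one table gives each probe's raw intensity and has no detection p. A normalized table was deposited as log2 values, for which the submitters' processing notes list lumi. For every probe the authors deposited the ratio of acetone to compound with its p-value, unadjusted, and for the model behind it the sources used here give nothing.

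The value tables carry no gene names. A probe took the name of the report entry whose ratios, as log2, fell within 0.0001 of its group differences, the next row being at least 5 times farther. In this way 25649 of 25697 probes were named, with all 6 members among them. Names were updated through RefSeq (GRCm38.p6), 23692 by accession, 852 by symbol and 434 by synonym, and 671 kept the deposited name.

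Background was removed by normexp (offset 50), and intensities of the 9 arrays were then quantile normalized, put on the log2 scale and tested over all 25697 probes, unfiltered, by limma 3.58.1 (R 4.3.3; lmFit, then eBayes) on the 6 arrays of each comparison, two-sided, with Benjamini-Hochberg adjustment and a threshold of 0.05. Gene lists used the brightest probe per gene. Simulated data had 200 of 25697 probes changed. The fit called 45.6% (DMBA) and 58.4% (BaP) of those set to differ by 0.5 on the log2 scale. Of those set to differ by 1 it called 94.9% and 98.8%. These shares hold for that number of changed probes and for normal values with the same spread in both groups. In the data 270 probes were called with DMBA and 2518 with BaP, so the shares are no measure of power there. Precision is limited by how few arrays there are; the median SE was 0.087 for each compound. Correlation between arrays of a group was 0.988 to 0.996 and no arrays were identical. Alternatives were median scaling, no background correction, another offset, the authors' log2 table, all arrays in 1 fit, 1 probe per gene, a filter on dim probes, array weights, a replicate block and leaving out each array. Tests by permutation used scipy 1.17.1, with Python 3.11.15, numpy 2.4.6, pandas 2.3.3 and matplotlib 3.10.9.

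The members and lists were chosen with earlier results of these data known. Named are all members, up to 4 called genes of each list with the largest difference, a fixed panel, and per member the genes with the highest correlation among probes above the median level. The differences of Oosp2 against acetone were added after their values were seen. The genes most like Oosp1 are not reported here.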

Additional observations from a re-analysis of the deposited data

How the results depend on the processing

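Of 270 repeats of the members' differences (6 genes, 3 comparisons, 15 alternatives each), 235 kept their direction and side of the threshold, 18 lost a call, 5 gained one and 12 changed sign. With BaP, Oosp1 (-1.40 to -0.88) and Bmp15 (-1.36 to -0.80) stayed called under all 15, while Gdf9 lost its call under 5. Sign changes were all of zona genes. With BaP they were Zp2 (-0.11) and Zp3 (-0.11) under median scaling, Zp1 under array weights (0.0070), and when an array was left out (-0.020 to 0.022), and Zp2 when an array was left out (-0.063 to 0.10). With DMBA it was Zp2 when an array was left out (-0.0088 to 0.14). Between the compounds they were Zp3 under median scaling (-0.17) and when an array was left out (-0.028 to 0.24), and Zp2 when an array was left out (-0.13 to 0.038).

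Of the 2 members called with DMBA, 0 remained under median scaling and in the authors' log2 table, 1 (Oosp1) without background correction and with offset 16, and 0 to 2 when an array was left out. Between the compounds 2 members were called under median scaling, beside 0. Probes called with DMBA numbered 270, against 4 under median scaling, 150 without background correction, 126 in the authors' log2 table, 462 with all 9 arrays in 1 fit, 1171 with array weights and 26 to 1132 leaving out an array (122, 26 and 64 without acetone replicates 1, 2 and 3, and 72 and 1132 leaving out DMBA replicates 2 and 3). With BaP they numbered 2518, against 6504 under median scaling, 944 with offset 16, 1502 with all arrays in 1 fit and 1446 (without acetone replicate 2) to 2391 leaving out an array. Between the compounds they numbered 288, against 2944 under median scaling, 145 with offset 16, 534 with all arrays in 1 fit, 1015 with array weights and 72 to 892 leaving out an array (82 and 892 without DMBA replicates 2 and 3, and 99, 72 and 81 without BaP replicates 1, 2 and 3). Apart from the settings' construction (fewer arrays, other weights), the cause was not tested.

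Pairing of arrays by replicate number was not clear, and so few arrays cannot settle it. Deviations of same-numbered arrays correlated at -0.180 to 0.130, and 2 of 9 were closest to their own number. Those 2 were pairs of acetone and DMBA arrays, which correlated at 0.038, 0.055 and 0.130. Pairs with a BaP array lay between -0.180 and 0.007. With a replicate block, 304 probes were called with DMBA, 1960 with BaP and 147 between the compounds, and the calls of all 6 members were as reported. On dim probes such as Zp2, signal over background limits what can be seen.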
